A study of Mus musculus with 6 samples.

Results

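Expression of 33 lysosomal genes was described in KIT+Gr1+ leukemia cells from Hoxa9/MTV and Hoxa9/IRX3 mice. The genes were taken by their symbols from a list of cathepsins, glycosidases, lipid hydrolases, lysosomal membrane proteins, lysozymes and the transcription factors Tfeb and Tfe3. All 33 symbols were found among the 41128 gene rows of the expression table. The series held polyA RNA sequencing of leukemia cells from 6 C57BL/6 mice with AML, 3 in each group. In the Hoxa9/MTV group the donor cells carried a Hoxa9 retrovirus and the empty vector MTV, and in the Hoxa9/IRX3 group they carried the Hoxa9 retrovirus and a retrovirus with human IRX3. In both groups the transplanted cells were CD45.1+ KIT+ bone marrow cells of young female mice that had been kept under drug selection after infection, and the recipients were irradiated CD45.2+ congenic females. Ages at death are not in the labels. The paper reported a later onset of AML in Hoxa9/IRX3 than in Hoxa9/MTV recipients. The groups may thus differ in time since transplantation too, which cannot be told apart from the vector here. RNA came from live CD45.1+ cells that stained for KIT and Gr1, isolated by flow cytometry out of frozen marrow collected when the recipients had become ill. Both introduced genes are expressed from retroviral vectors inserted in the donor cells, and each mouse gave 1 library.

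Lysosomes are acidic organelles in which proteins, glycans and lipids taken up by endocytosis, phagocytosis or autophagy are broken down. Their hydrolases are made in the endoplasmic reticulum, most are tagged with mannose 6-phosphate and sorted in the Golgi, and they work at the low pH that the V-ATPase proton pump maintains. Many lysosomal genes are targets of TFEB and TFE3, basic helix-loop-helix factors that bind an E-box with flanking bases known as the CLEAR element. Monocytes and macrophages are rich in lysosomes and in cathepsins, and neutrophils store lysozyme and some acid hydrolases in their granules.

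The 6 libraries held 7979246 to 9803621 reads, as recovered from the steps in the lowest values. Of the introduced genes, Hoxa9 was read at 154 to 363 RPKM (reads per kilobase of gene, scaled to library size) in all mice. Reads aligned to mouse Irx3 numbered 0 in each Hoxa9/MTV mouse and 474, 15 and 4 in Hoxa9/IRX3 mice 3.2, 3.3 and 3.5, where the introduced gene is the human one, so that these counts do not measure its level. The sorted phenotype was seen as Kit at 1.63 to 3.12 RPKM and Ly6c2, which encodes a Gr1 antigen, at 413 to 844 RPKM, whereas Ly6g, the other Gr1 antigen, lay between 0.0532 and 1.42 RPKM. Of other lineages, 0 of 8 erythroid and 0 of 6 stromal markers passed the expression filter. At an adjusted p under 0.05 by limma, 3.52% of all genes were lower in Hoxa9/IRX3 cells. The lower markers were Flt3 (1 of 4 tested in the dendritic cell list), Cd79b (the 1 tested of 7 B cell markers) and Cpa3 (1 of 3 tested in the mast cell list). Ms4a2, also of the mast cell list, was instead higher in each Hoxa9/IRX3 mouse than in each Hoxa9/MTV mouse. The T and NK cell list was led by Nkg7 at 482 RPKM in mouse 3.5 against 14.9 to 100.2 RPKM in the other mice. Nkg7 was the 1 gene of the 9 in that list that passed the filter. Cd3d, Trac and Ncr1 were at 0 in all mice, and Cd3e, Cd3g, Cd4 and Cd8a had 0 reads in each Hoxa9/IRX3 mouse.

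The promoters below are shown because they hold the E-box CACGTG in its CLEAR form or in several copies. The window ran from 250 bases before to 50 after each RefSeq start (GRCm38.p6), was matched by symbol for 29 of the 33 genes, and was searched on both strands, which read the same for this palindrome. It held CACGTG for 9 of 29 genes (31.0%), against 12.4% of 7243 expressed genes with a window and 8.09% of all 27025. The CLEAR form TCACGTGA, each copy of which is also counted as an E-box, was found for 4 of 29 genes (13.8%), against 2.40% of expressed genes and 1.12% of all genes. Those 4 were Ctsa, Ctsd, Mcoln1 and Gla, and Lamp1 held 4 copies of the shorter motif. Upstream stretches are printed 5′ to 3′ with the motifs in capitals.
Ctsa, chr2:164833701-164833772, plus strand: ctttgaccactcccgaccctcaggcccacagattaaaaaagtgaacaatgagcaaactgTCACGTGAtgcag
Ctsd, chr7:142387860-142388077, minus strand: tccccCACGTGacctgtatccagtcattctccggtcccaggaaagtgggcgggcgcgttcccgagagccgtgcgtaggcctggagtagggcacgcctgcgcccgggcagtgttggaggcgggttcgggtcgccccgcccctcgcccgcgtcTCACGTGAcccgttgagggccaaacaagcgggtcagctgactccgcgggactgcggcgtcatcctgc
Mcoln1, chr8:3500388-3500518, plus strand: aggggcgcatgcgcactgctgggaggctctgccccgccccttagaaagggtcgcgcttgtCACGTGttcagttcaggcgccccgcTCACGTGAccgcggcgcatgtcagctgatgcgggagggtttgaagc
Gla, chrX:134601134-134601255, minus strand: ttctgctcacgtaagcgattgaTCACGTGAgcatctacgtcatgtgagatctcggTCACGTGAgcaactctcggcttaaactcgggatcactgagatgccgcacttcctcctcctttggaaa
Lamp1, chr8:13159040-13159160, plus strand: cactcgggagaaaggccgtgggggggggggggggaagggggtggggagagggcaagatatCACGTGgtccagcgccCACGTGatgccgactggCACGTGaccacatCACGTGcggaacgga
Glb1, Gaa, Lgmn and Ctsl held a single E-box each. The windows of Cd68, Ctss, Man2b1 and Lyz2 held none of these letters, and Ctsb, Ctsh, Npc1 and Asah1 had no window.

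Of the 33 genes, 30 passed the expression filter (over 0.5 RPKM in at least 1 mouse), and Lgmn, Lyz1 and Tfeb did not. Among the 30, Cd68, Ctss, Man2b1 and Ctsb were lower in Hoxa9/IRX3 than in Hoxa9/MTV cells and 0 were higher (limma on log2(RPKM + 0.5), Benjamini-Hochberg over 9522 protein-coding genes, adjusted p under 0.05). These 4 are 13.3% of the tested genes, where 3.52% of all 9522 genes were called lower and 1.84% higher. Cd68, Ctss and Man2b1 (10%) also differed by at least 2-fold, against 2.03% of all genes. At an unadjusted p under 0.05, 14 of the 30 were lower, or 46.7% against 16.0% of all genes, and Cd63 alone was higher, where 8.34% of all genes were. The Hoxa9/IRX3 mice all lay below the Hoxa9/MTV mice for 16 of the 30 genes, or 53.3% against 21.6% of all genes, and all above them for Cd63, against 12.2% of all genes. The log2 fold change (below, log2 change) was negative for 23 of 30 (76.7%, against 57.5% of all genes), and its median was -0.48 beside -0.06 for all genes. Under the criterion used in the study, an unadjusted p under 0.05 with a ratio of means over 2, Cd68, Ctsh, Ctss and Man2b1 were lower, against 4.72% of all genes.

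The 4 calls needed all 3 Hoxa9/MTV mice. With mouse 1.1, 1.2 or 1.4 left out, limma called 0 of the 30 genes and 76, 66 and 61 of all genes. In these fits 10, 9 and 9 of the 30 had an unadjusted p under 0.05 and a lower value in Hoxa9/IRX3. The share of all genes at that unadjusted level was not counted there, so these numbers stand without a background. With mouse 3.2, 3.3 or 3.5 left out, 5, 6 and 3 of the 30 were called, each lower. Over all genes, 506, 444 and 309 were called lower in the same fits, beside 335 with all mice. Over all genes 65.7% of calls were lower ones, and this share was 56.3% after median-of-ratios scaling and 53.9% after quantile normalization, where 3 of the 30 genes were called, each lower. With 3 mice against 3, an exact permutation test of a single gene cannot go below p = 0.1, so p-values here rest on the spread shared over genes in the limma fit. In bulk RNA, fewer cells of a type and less RNA per cell cannot be told apart.

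**Figure D1:**
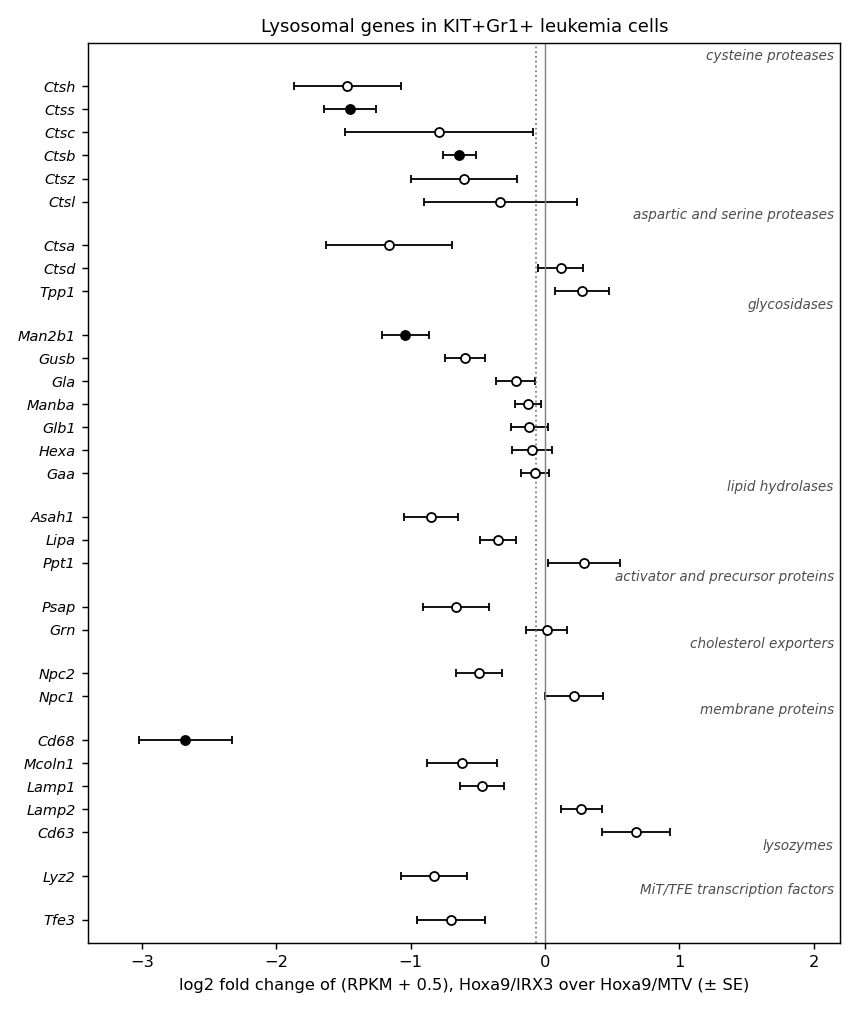
Log2 fold change of (RPKM + 0.5), Hoxa9/IRX3 over Hoxa9/MTV, for the 30 tested lysosomal genes grouped by role (points, with bars of ±1 SE). Filled points are the 4 genes with an adjusted p under 0.05 (Cd68, Ctss, Man2b1 and Ctsb), all left of 0, and the dotted line is the median of all tested genes (-0.06).

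Among the cysteine proteases, which cleave most proteins in the endolysosomal lumen, Ctss and Ctsb fell in Hoxa9/IRX3 cells. All 6 tested members had a negative log2 change, with a median of -0.71. Ctss encodes cathepsin S, the protease that trims the MHC class II invariant chain in antigen-presenting cells. It was read at 1.00, 1.11 and 1.64 RPKM in the Hoxa9/MTV mice against 0.263, 0.0895 and 0.0592 RPKM in the Hoxa9/IRX3 mice. The groups stood far apart, since the highest Hoxa9/IRX3 value, in mouse 3.2, came from 69 reads and the lowest Hoxa9/MTV value from 262 reads. Group means were 1.25 ± 0.341 and 0.137 ± 0.110 RPKM (SD, n = 3 each), 9.09-fold apart, and the log2 change was -1.45 (SE 0.20, adjusted p = 0.0147). The deposited RPKM divides by the whole gene with its introns, which lowers its values for Ctss. Per exon length, taking exons as the part counted, the means were 27.2 and 2.99 RPKM. On the log2(RPKM + 0.5) scale a change between such low deposited values is understated, and voom on recovered reads gave -3.41.

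Ctsb encodes cathepsin B, an abundant lysosomal protease with both endopeptidase and dipeptidase activity. It was read at 23.7, 25.0 and 25.2 RPKM in the Hoxa9/MTV mice against 16.3, 16.3 and 14.5 RPKM in the Hoxa9/IRX3 mice. Both groups were tight and apart. Means of 24.6 ± 0.781 and 15.7 ± 1.07 RPKM (SD, n = 3 each) gave a log2 change of -0.64 (SE 0.12, adjusted p = 0.0383), and the adjusted p was 0.0515 after median-of-ratios scaling and 0.0503 after quantile normalization. Its exons share 774 bases with Fdft1 on the opposite strand, and whether the counting used strand is not given in the sources used here.

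Ctsh, the aminopeptidase cathepsin H, was read at 4.43, 4.71 and 5.10 RPKM in Hoxa9/MTV and at 1.09, 3.16 and 0.657 RPKM in Hoxa9/IRX3 mice. The groups did not overlap, but mouse 3.3 lay well above the other Hoxa9/IRX3 mice, and the log2 change of -1.47 ± 0.40 missed the threshold (SE, n = 3 each, adjusted p = 0.0842). Without mouse 3.3 the adjusted p was 0.00801. The remaining cysteine proteases had groups that overlapped, and the values of Ctsc and Ctsl are given because they were seen to vary most between mice. Ctsc, or dipeptidyl peptidase I, which activates the serine proteases of neutrophil granules, had 860, 724 and 995 reads in the Hoxa9/MTV mice and 33, 1439 and 532 in the Hoxa9/IRX3 mice. Its order was thus set by single mice, and the log2 change of -0.79 ± 0.70 turned to 0.06 without mouse 3.2. Ctsl, a broad endopeptidase, had 871 reads in mouse 1.4 and 142 to 376 reads in the other 5 mice, and its log2 change of -0.33 ± 0.57 turned to 0.31 without mouse 1.4. Ctsz, a carboxypeptidase, had a log2 change of -0.60 (SE 0.40, adjusted p = 0.384). Lgmn, or asparagine endopeptidase, had 0, 0 and 15 reads in Hoxa9/MTV and 3, 0 and 2 reads in Hoxa9/IRX3 libraries, and a library with 0 reads allows up to 3, by counting error alone.

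Of the aspartic and serine proteases, 0 of 3 passed the adjusted threshold by limma or by voom, and Ctsa alone had an unadjusted p under 0.05. Ctsa, or protective protein, is a carboxypeptidase that also stabilizes beta-galactosidase and neuraminidase. It was read at 22.01, 25.8 and 27.1 RPKM in Hoxa9/MTV and at 17.1, 15.7 and 4.62 RPKM in Hoxa9/IRX3 mice, without overlap (log2 change -1.16 with an SE of 0.47, adjusted p = 0.192). Mouse 3.5 was the lowest by far, and the exons of Ctsa share 495 bases with Pltp and 324 with Neurl2 on the opposite strand. Ctsd, the main aspartic protease of lysosomes, had a log2 change of 0.12 ± 0.17, and Tpp1, a tripeptidyl peptidase, of 0.28 ± 0.20, both with overlapping groups.

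Among the glycosidases, which remove sugars from glycoproteins and glycolipids, Man2b1 fell and the other 6 did not pass the threshold, although all 7 had a negative log2 change (median -0.13). Man2b1 is the lysosomal alpha-mannosidase of N-glycan breakdown. It was read at 19.6, 24.0 and 24.4 RPKM in Hoxa9/MTV and at 11.97, 8.79 and 11.7 RPKM in Hoxa9/IRX3 mice. The groups were clearly apart, with means of 22.7 ± 2.71 and 10.8 ± 1.76 RPKM (SD, n = 3 each), a ratio of 2.10 and a log2 change of -1.04 (SE 0.17, adjusted p = 0.0271). Its neighbour in function Manba, the beta-mannosidase that acts on the last mannose link, was read at 1.25, 1.37 and 1.47 RPKM in Hoxa9/MTV and at 1.20, 1.22 and 1.19 RPKM in Hoxa9/IRX3 mice. These groups did not overlap either, yet the log2 change was only -0.13 (SE 0.10, adjusted p = 0.473).

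Gusb, the beta-glucuronidase of glycosaminoglycan breakdown, was read at 19.8, 20.5 and 25.5 RPKM in Hoxa9/MTV and at 13.4, 14.4 and 15.03 RPKM in Hoxa9/IRX3 mice. The groups were apart, and the log2 change of -0.60 ± 0.15 had an adjusted p of 0.0713. Hexa, Gla, Glb1 and Gaa, whose loss causes Tay-Sachs, Fabry, GM1 and Pompe storage disease, had overlapping groups and log2 changes from -0.22 to -0.07. Gaa became 0.0075 after median-of-ratios scaling and 0.026 after quantile normalization.

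Of the lipid hydrolases, Asah1 and Lipa did not overlap between groups and Ppt1 did, and 0 of 3 passed the adjusted threshold by limma or voom, with Asah1 and Lipa under an unadjusted p of 0.05. Asah1, the acid ceramidase, was read at 4.03, 4.82 and 4.19 RPKM in Hoxa9/MTV and at 3.07, 2.03 and 1.65 RPKM in Hoxa9/IRX3 mice. All 3 Hoxa9/IRX3 mice were lower, the log2 change was -0.85 (SE 0.20, adjusted p = 0.0641), and the adjusted p was 0.0177 without mouse 3.2. Lipa, which hydrolyses cholesteryl esters and triglycerides, was read at 2.63, 2.46 and 2.07 RPKM in Hoxa9/MTV and at 2.00, 1.51 and 1.81 RPKM in Hoxa9/IRX3 mice, so that mouse 3.2 lay just under mouse 1.4. Its log2 change was -0.35 (SE 0.13, adjusted p = 0.176). Ppt1, which removes palmitate from proteins, had a log2 change of 0.29 ± 0.27.

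Psap, the precursor of the saposins that present glycolipids to their hydrolases, was read at 34.9, 29.4 and 36.1 RPKM in Hoxa9/MTV and at 27.9, 22.1 and 14.7 RPKM in Hoxa9/IRX3 mice. The groups lay close but did not overlap, and the log2 change was -0.66 (SE 0.25, adjusted p = 0.166). Grn, which encodes progranulin, the precursor of the granulins, spanned 75.99 to 86.6 RPKM among Hoxa9/MTV and 71.4 to 91.2 RPKM among Hoxa9/IRX3 mice, so that one range lay inside the other (log2 change 0.01 ± 0.15). Of the pair that moves cholesterol out of the lysosome, the soluble carrier Npc2 was read at 18.9, 20.9 and 23.2 RPKM in Hoxa9/MTV and at 14.6, 17.7 and 12.5 RPKM in Hoxa9/IRX3 mice. It did not overlap (log2 change -0.49 with an SE of 0.17, adjusted p = 0.149), while its membrane partner Npc1 did (0.21 ± 0.22).

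Of the 5 membrane proteins, Cd68 fell, and on the log2(RPKM + 0.5) scale its change was the largest of the 30 genes tested. Cd68 encodes macrosialin, a heavily glycosylated relative of the LAMP proteins and a widely used marker of monocytes and macrophages. It was read at 67.9, 87.3 and 80.1 RPKM in Hoxa9/MTV mice (1165, 1407 and 1504 reads) and at 13.1, 18.3 and 6.71 RPKM in Hoxa9/IRX3 mice (226, 348 and 104 reads). Each Hoxa9/IRX3 mouse was far under each Hoxa9/MTV mouse. Means were 78.4 ± 9.81 and 12.7 ± 5.80 RPKM (SD, n = 3 each), 6.17-fold apart, and the log2 change was -2.68 (SE 0.35, adjusted p = 0.0135). Leaving out a Hoxa9/MTV mouse raised the adjusted p of Cd68 to at most 0.0763, of Ctss to 0.0763, of Man2b1 to 0.126 and of Ctsb to 0.167, with the same direction each time. Exons of 11 of the 33 genes overlap those of another gene, 9 of them on the opposite strand, and no exon of Cd68, Ctss or Man2b1 does.

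Lamp1, a main glycoprotein of the lysosomal membrane, was read at 38.9, 46.8 and 42.0 RPKM in Hoxa9/MTV and at 34.3, 32.1 and 25.8 RPKM in Hoxa9/IRX3 mice, without overlap (log2 change -0.47 with an SE of 0.16, adjusted p = 0.147). Its exons share 249 bases with Grtp1 on the opposite strand. Its relative Lamp2, which also serves chaperone-mediated autophagy, pointed the other way with overlapping groups (0.27 ± 0.15). Mcoln1, the calcium channel TRPML1, was read at 2.56, 2.70 and 2.65 RPKM in Hoxa9/MTV and at 2.14, 1.94 and 0.823 RPKM in Hoxa9/IRX3 mice. It did not overlap, though mouse 3.5 lay apart from the other 2 (log2 change -0.62 with an SE of 0.26, adjusted p = 0.211). Cd63, a tetraspanin of lysosomes and granules, was read at 1.45, 1.24 and 1.91 RPKM in Hoxa9/MTV and at 2.40, 1.99 and 4.12 RPKM in Hoxa9/IRX3 mice. It was the only 1 of the 30 genes with each Hoxa9/IRX3 mouse above each Hoxa9/MTV mouse (log2 change 0.68 with an SE of 0.25, adjusted p = 0.166).

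**Figure D2:**
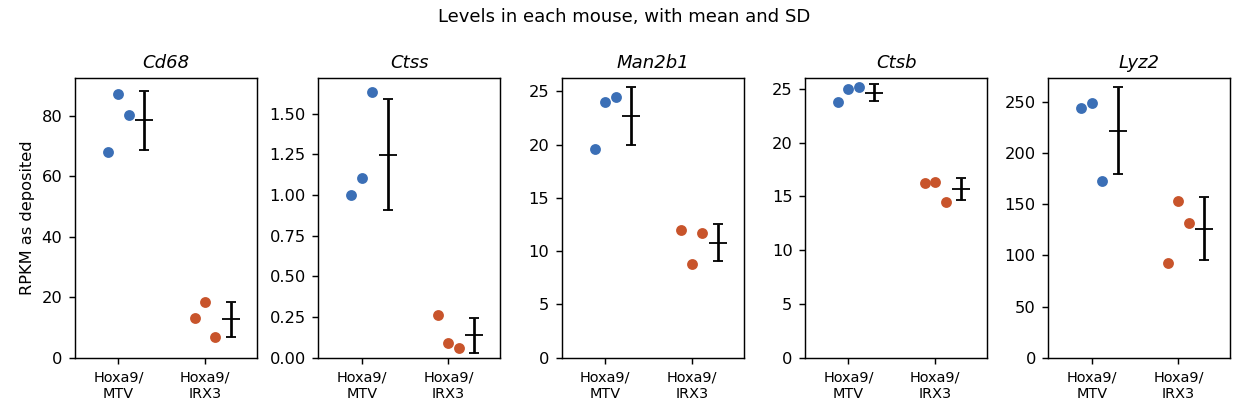
RPKM as deposited in each mouse for the 4 called genes and Lyz2 (points; blue Hoxa9/MTV, orange Hoxa9/IRX3), with the mean and SD of each group of 3 as black bars and each vertical axis from 0. For all 5 genes the Hoxa9/IRX3 mice lie under the Hoxa9/MTV mice, with the widest gap relative to level for Ctss (9.09-fold) and Cd68 (6.17-fold).

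The mouse has neighbouring lysozyme genes on chromosome 10, Lyz2 of the myeloid lineage (GRCm38, 117277331 to 117282321, minus strand) and Lyz1 of intestinal Paneth cells (117287797 to 117292868, minus strand). Their coding sequences, 447 bases each, are identical at 425 positions (95.1%). The first 120 coding bases from the GENCODE M21 transcripts are shown because reads are told apart only where the genes differ, and the 11 differences are in capitals.
Lyz1: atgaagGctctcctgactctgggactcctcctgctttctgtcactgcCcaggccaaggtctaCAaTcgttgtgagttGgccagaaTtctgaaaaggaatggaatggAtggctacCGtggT
Lyz2: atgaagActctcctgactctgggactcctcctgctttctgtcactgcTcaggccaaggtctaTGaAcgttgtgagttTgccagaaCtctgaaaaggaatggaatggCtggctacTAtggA
Of all stretches of 75 bases, the read length, 74 were shared, which is 5.96% of those in Lyz2 and 6.22% of those in Lyz1. Alignments with a mapping quality under 20 had been removed, so that reads of such stretches can be missing from both genes. Lyz1 had 3, 4 and 1 reads in Hoxa9/MTV and 0, 0 and 1 in Hoxa9/IRX3 libraries, near the floor of 3 reads in both groups. Lyz2 was read at 244, 249 and 173 RPKM in Hoxa9/MTV and at 92.6, 153 and 132 RPKM in Hoxa9/IRX3 mice, that is 222 ± 42.5 against 126 ± 30.8 RPKM (SD, n = 3 each). The groups were apart, with the least distance between mice 1.4 and 3.3, and the log2 change of -0.83 ± 0.24 did not pass the threshold (SE, adjusted p = 0.104).

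Per exon length, taking exons as the part counted, Tfeb was at 4.11 ± 0.128 and Tfe3 at 4.26 ± 0.339 RPKM in Hoxa9/MTV cells (SD, n = 3 each). The deposited RPKM, given next, divides by the whole gene with its introns, 55390 bases for Tfeb and 12643 for Tfe3. Tfeb had 89 to 252 reads in the 6 libraries. Tfeb, under the expression filter, was at 0.435, 0.409 and 0.420 RPKM in Hoxa9/MTV and at 0.263, 0.464 and 0.201 RPKM in Hoxa9/IRX3 mice, so the groups overlapped through mouse 3.3. Tfe3 was at 3.25, 2.84 and 3.29 RPKM in Hoxa9/MTV and at 1.77, 2.65 and 1.04 RPKM in Hoxa9/IRX3 mice, without overlap and again with mouse 3.3 nearest to the Hoxa9/MTV mice. Its log2 change was -0.70 (SE 0.25, adjusted p = 0.158), and the adjusted p was 0.0461 without mouse 3.3. Of the 9 genes with an E-box in the promoter window, 8 were tested and 0 were called by limma or voom. Limma called 3.52% of all genes lower and 1.84% higher, so 0 of so few genes says little. Ctsa and Lamp1 had a lower value at an unadjusted p under 0.05 (16.0% of all genes). Ctsa, Lamp1 and Mcoln1 did not overlap on the lower side (21.6% of all genes). A link between the motif and the changes was not tested. The log2 changes of the 8 tested genes ran from -1.16 for Ctsa to 0.12 for Ctsd.

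Levels can be set side by side only per exon length, since the deposited RPKM divides by the whole gene with its introns. On that scale, which takes exons as the part counted, Lyz2 was the highest of the 33 genes, at 842 ± 161 RPKM for Hoxa9/MTV and 478 ± 117 RPKM for Hoxa9/IRX3 (SD, n = 3 each). Psap followed with 305 ± 32.5 and 196 ± 60.2 RPKM, then Lamp1 with 257 ± 24.0 and 186 ± 26.6 RPKM and Ctsz with 247 ± 13.5 and 178 ± 88.5 RPKM. The ranges of Psap and Lamp1, and of Lamp1 and Ctsz, overlapped in both groups. Grn was at 157 ± 10.4 and 159 ± 19.4 RPKM and Ctsd at 126 ± 5.61 and 138 ± 24.8 RPKM. Cd68 stood seventh in the Hoxa9/MTV order at 121 ± 15.1 RPKM, within the spread of Ctsd, and was at 19.6 ± 8.95 RPKM in Hoxa9/IRX3 cells. The lowest were Lyz1 at 0.244 and 0.0331 RPKM and Lgmn at 0.223 and 0.0845 RPKM.

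**Figure D3:**
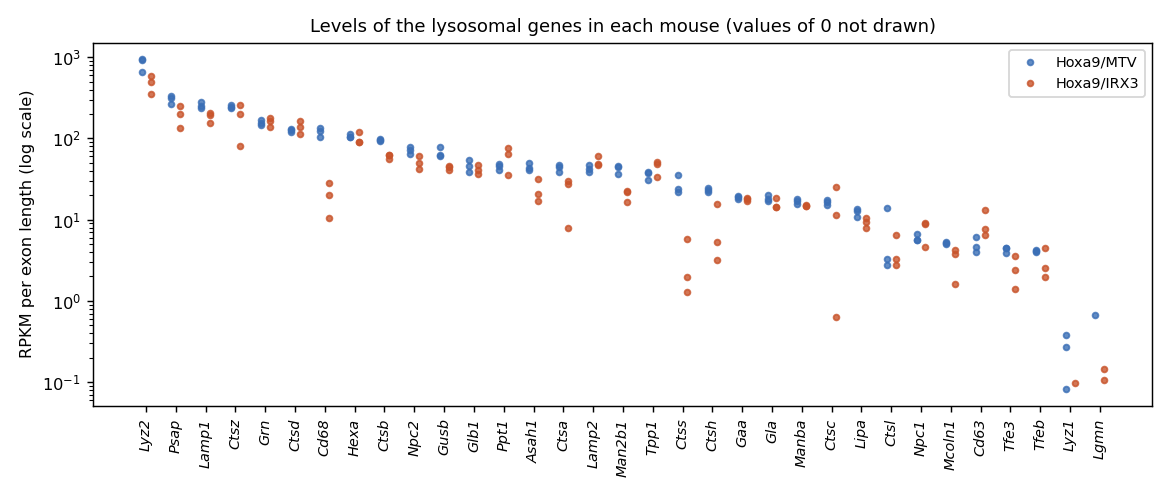
RPKM per exon length on a log axis for the 33 lysosomal genes in each of 6 mice (blue Hoxa9/MTV, orange Hoxa9/IRX3), ordered by the Hoxa9/MTV mean, with values of 0 not drawn. Levels run from Lyz2 (842 RPKM, Hoxa9/MTV mean) to Lyz1 and Lgmn (0.244 and 0.223 RPKM), and the orange points of Cd68 and Ctss lie well under the blue ones.

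Summed over the 33 genes, lysosomal transcripts took 7710, 8077 and 7855 RPM (reads scaled to library size, with no length term) in the Hoxa9/MTV mice and 6037, 6526 and 5136 in the Hoxa9/IRX3 mice. The groups did not overlap, and without Lyz2 the sums were 6492 to 6991 and 4478 to 5760 RPM. Lyz2 had the most reads of the 33 genes in 4 mice, and Psap in mice 1.4 and 3.2. The 3 Hoxa9/IRX3 mice were not alike. Mouse 3.5 was the lowest of all 6 for 16 of the 30 tested genes, and for 33.3% of all genes. Mice 3.2 and 3.3 were lowest for 6 and 5 of the 30, and for 16.9% and 16.4% of all genes. Under the lowest Hoxa9/MTV value lay 21, 19 and 24 of the 30 genes in mice 3.2, 3.3 and 3.5, against 40.6%, 40.2% and 50.0% of all genes. The SD of log2 values within a group had a median over the tested genes of 0.128 in Hoxa9/MTV and 0.293 in Hoxa9/IRX3, beside 0.121 and 0.242 over all genes.

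**Figure D4:**
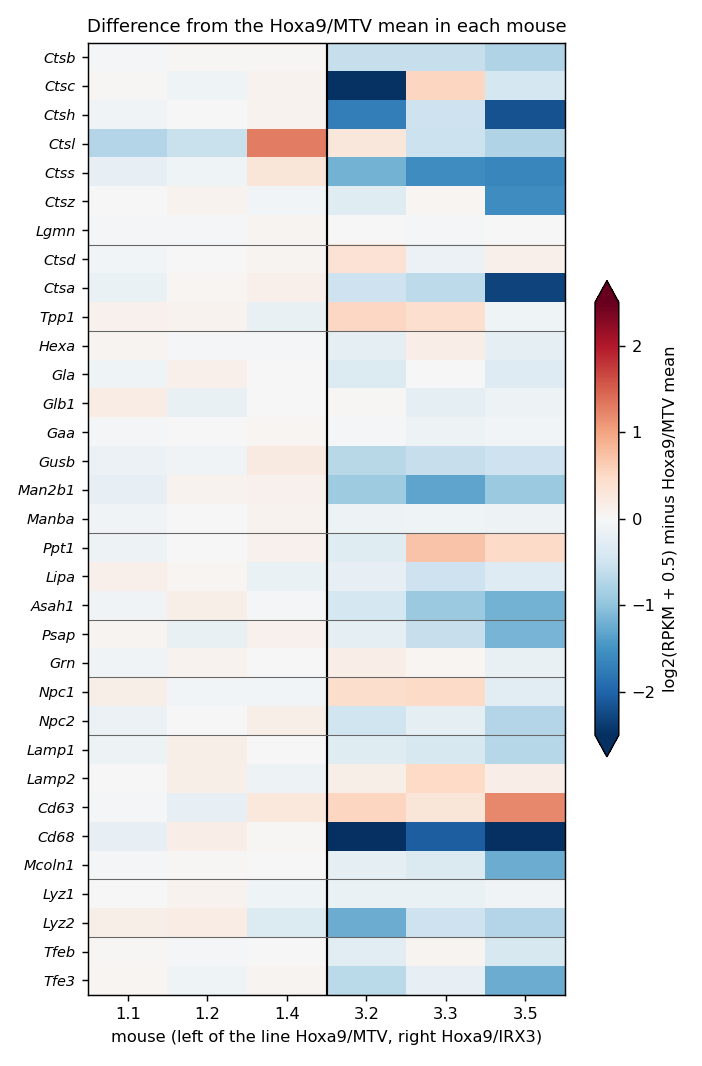
Difference of log2(RPKM + 0.5) from the Hoxa9/MTV mean for the 33 lysosomal genes (rows, grouped by role) in each mouse (columns), with blue for lower and red for higher and the scale ending at ±2.5. Cd68, Ctss and Man2b1 are blue in all 3 Hoxa9/IRX3 mice, whereas Ctsc is dark blue in mouse 3.2 alone and Ctsl is red in Hoxa9/MTV mouse 1.4.

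Markers of myeloid cell types moved with the comparison in part. Of 17 monocyte and macrophage markers 10 were tested, of which Ccr2, a chemokine receptor of classical monocytes, was lower (log2 change -2.06) and the adhesion molecule Vcam1 higher (3.20), with a median of -1.10 over the 10. Their summed reads were 6307 to 6951 RPM among Hoxa9/MTV and 3744 to 7977 RPM among Hoxa9/IRX3 mice, and the macrophage markers C1qc and Marco were at 0 in all mice. Csf1r, the receptor for macrophage colony-stimulating factor, lay between 4.77 and 5.94 RPKM in the Hoxa9/MTV group, whereas mice 3.2, 3.3 and 3.5 had 0.790, 6.43 and 0.552 RPKM. Mouse 3.3 thus had the highest Csf1r and the highest monocyte and macrophage sum of the 6 mice, while its Cd68, at 18.3 RPKM, and its Ctss, from 26 reads, were far under every Hoxa9/MTV mouse. Among the Hoxa9/IRX3 mice, 14 of the 30 tested lysosomal genes were highest in mouse 3.2, 14 in mouse 3.3 and 2 in mouse 3.5. Of 16 neutrophil markers, all tested, Elane, Ly6g and Retnlg were higher by limma (1.84% of all genes), and 0 were lower by limma or voom. At an unadjusted p under 0.05, 7 of the 16 were higher and 0 lower, where 8.34% and 16.0% of all genes were. The Hoxa9/IRX3 mice all lay above the Hoxa9/MTV mice for 6 of the 16, against 12.2% of all genes. Summed reads of the 16 were 12100 to 18071 RPM among Hoxa9/MTV and 21422 to 26528 RPM among Hoxa9/IRX3 mice. Without Elane, the sums overlapped, at 10891 to 15997 and 14862 to 21566 RPM. None of the listed markers is among the 33 genes, and their part in the lysosomal differences was not tested.

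Of 39 other lysosomal hydrolases 35 were tested and 1 was lower, with a median log2 change of -0.17, and 0 were higher by limma or voom. At an unadjusted p under 0.05, 6 were lower and 3 higher (16.0% and 8.34% of all genes), and 7 did not overlap on the lower side (21.6% of all genes). The gene called was Naglu, a glucosaminidase of heparan sulfate breakdown, with a mean of 9.92 ± 0.747 RPKM among Hoxa9/MTV and 5.47 ± 0.945 RPKM among Hoxa9/IRX3 mice (log2 change -0.81 with an SE of 0.16, n = 3 each, adjusted p = 0.0378). After median-of-ratios scaling or quantile normalization Naglu had an adjusted p of 0.0652 or 0.0624 and 0 of the 35 were lower, while Man2b2, an alpha-mannosidase named after its values were seen, was higher (log2 change 0.56 or 0.58, adjusted p = 0.0304 or 0.0282). Man2b2 was also the gene called higher without mouse 3.5, where the adjusted p of Naglu was 0.0532. Without mouse 3.3, 2 of 34 were lower and 1 higher, and leaving out a Hoxa9/MTV mouse or the expression filter ended the Naglu call. Of 25 other lysosomal membrane proteins 20 were tested and 0 called by limma or voom. By the same counts, 6 of the 20 were lower and 1 higher at an unadjusted p under 0.05, 11 of the 20 did not overlap on the lower side, and the median was -0.35. Of 18 V-ATPase genes 15 were tested and 0 were called, with 4 lower at an unadjusted p under 0.05, 1 called by voom and a median of -0.26. The gene that voom called was Atp6v0a1, a subunit of the membrane sector (log2 change -1.39, adjusted p = 0.0502 by limma).

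Among 13 genes of hydrolase sorting, Igf2r, the large mannose 6-phosphate receptor, was higher, from 0.0985 ± 0.0371 to 1.32 ± 0.805 RPKM (log2 change 1.51 with an SE of 0.32, n = 3 each, adjusted p = 0.0462), and 0 were lower by limma or voom, with 1 lower at an unadjusted p under 0.05. The Igf2r call was lost with a pseudocount of 1, without the expression filter, after median-of-ratios scaling or quantile normalization and when any single mouse other than 3.2 was left out, where the adjusted p ran from 0.0507 to 0.172. It also was not called by the criterion of the study, and a mean of at least 1 RPKM left it untested. The TFEB control list held genes that act on TFEB through mTORC1 and the Rag GTPases, and the TFEB relatives Mitf and Tfec. Of its 14 tested genes, among them Tfec, 0 were called by limma or voom and 0 had an unadjusted p under 0.05. Among 15 tested autophagy genes, Atg12, the ubiquitin-like protein of the autophagosome conjugation system, was higher, from 23.9 ± 3.85 to 64.5 ± 16.5 RPKM (log2 change 1.39 with an SE of 0.24, n = 3 each, adjusted p = 0.0285), and 0 were lower by limma or voom, with 2 lower at an unadjusted p under 0.05. The Atg12 call was lost without the expression filter, without mouse 3.5 and when any single Hoxa9/MTV mouse was left out (adjusted p from 0.0539 to 0.125). Of 4 tested cathepsin inhibitors 0 were called by limma or voom, and 1 was higher at an unadjusted p under 0.05, Cst7 or cystatin F, an inhibitor of cathepsin C and L (log2 change 0.64, adjusted p = 0.107). The medians of the sorting, TFEB control, autophagy and inhibitor lists were 0.04, -0.03, -0.07 and 0.27. The difference between these lists and the 33 genes was not tested.

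**Figure D5:**
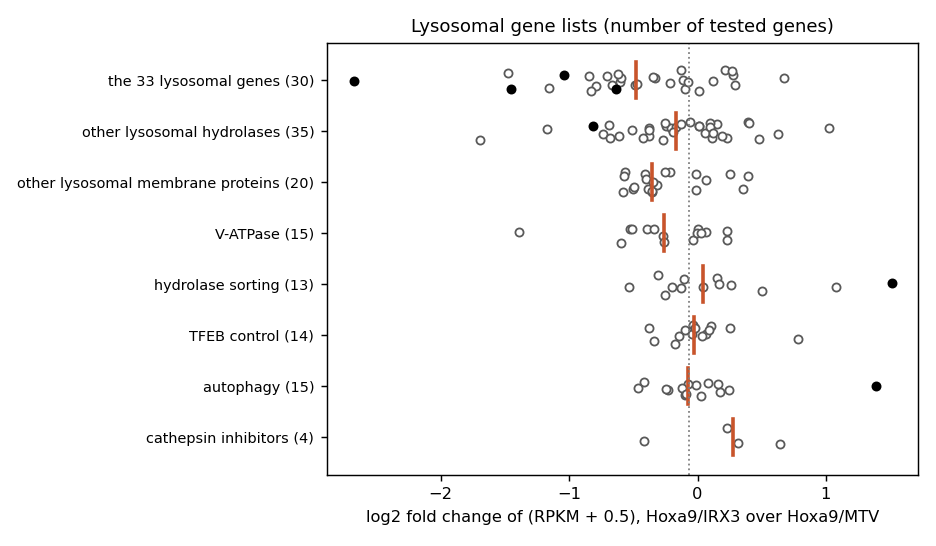
Log2 fold change of (RPKM + 0.5), Hoxa9/IRX3 over Hoxa9/MTV, for each tested gene of the 33 lysosomal genes and of 7 related lists (number tested in brackets; filled points have an adjusted p under 0.05; vertical bars are list medians; points are spread vertically for legibility). The medians run from -0.48 for the 33 lysosomal genes to 0.27 for the cathepsin inhibitors, with the dotted line at the median of all genes (-0.06).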

How the data were processed

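RNA of sorted leukemia cells from 6 mice was sequenced as paired reads of 75 bases from a strand-specific polyA kit. The authors aligned reads to GRCm38 with Bowtie2 2.2.1, removed alignments with quality under 20 with SAMtools 0.1.19, and deposited RPKM values per gene. The divisor was found to be the whole gene span of GENCODE M21, matched for 40254 of 41128 rows. Reads per gene were recovered from the steps of low values and were whole within 0.01 for 65.0% of tested genes, so depth (7979246 to 9803621 reads) is an estimate.

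Genes were fitted with limma 3.58.1 in R 4.3.3 (lmFit, eBayes with trend) on log2(RPKM + 0.5), for 9522 protein-coding genes over 0.5 RPKM in at least 1 mouse, with Benjamini-Hochberg adjusted p under 0.05 (two-sided). The fit was tested on simulated data. The lysosomal genes and the lists were chosen with earlier results of these data known. Values in each mouse were given for genes called or not overlapping, lysozymes, Tfeb, Tfe3 and the 3 highest levels per exon length, and in other lists called genes were named. Ctsc, Ctsl, Grn, Atp6v0a1, Cst7, Man2b2, Tfec, Mitf and the markers named were chosen after their values were seen. Alternatives changed the pseudocount, filter, scaling, variance model, test and mice. The labels name separate mice, so replicates are animals.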

Additional observations from a re-analysis of the deposited data

How the results depend on the processing

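Setting each tested lysosomal gene beside its value under each alternative, 451 comparisons kept direction and side of the threshold, 16 lost and 4 gained significance, and 8 changed sign. The sign changed for Gaa (0.0075 with median-of-ratios scaling, 0.026 with quantile normalization) and, with a mouse left out, for Ctsc (0.056 without mouse 3.2), Ctsl (0.31 without mouse 1.4), Ctsd (-0.0070 without mouse 3.2) and Grn (-0.033 without mouse 1.1, -0.067 without mouse 3.2 and -0.0049 without mouse 3.3). Leaving out a mouse in turn gave 0 to 6 calls among the 33 lysosomal genes, 61 to 761 among all genes (76, 66 and 61 without mouse 1.1, 1.2 or 1.4), 0 to 4 other hydrolases, 0 to 1 other membrane proteins, 0 to 1 V-ATPase genes, 0 to 3 sorting genes, 0 TFEB control genes, 0 to 2 autophagy genes and 0 cathepsin inhibitors. Among other hydrolases 2 genes were called with a pseudocount of 1, a mean of at least 1 RPKM, sample weights or voom on recovered reads, and 0 without a filter; after either scaling the 1 call was of a higher gene, Man2b2, in place of Naglu. Of the V-ATPase genes 1 was called with a pseudocount of 1, sample weights, voom or the criterion of the study. Of the sorting genes 0 were called with a pseudocount of 1, a mean of at least 1 RPKM, no filter, either scaling or the criterion of the study, and 2 with sample weights. Of the autophagy genes 0 were called without a filter. The cause of these moves was not tested. No paired analysis was possible because the mouse numbers name animals and the groups share none of them. Depth limits Lyz1 and Lgmn, which had at most 15 reads in any library.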
